A study of Mus musculus with 4 samples.

Results

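Rab GTPases are the largest family of small GTP-binding proteins, and these results describe their transcripts in mouse oocytes kept under high hydrostatic pressure and in control oocytes. Members were the genes whose name in the scanner files is Rab followed by a number, with or without a letter from a to d and a closing digit. This took in 54 genes, measured by 102 probes on 111 spots, of 19505 named genes and 41174 probes on the array. Pools of 50 treated oocytes were held for 60 min under 20 MPa at 37 °C, and pools of 50 control oocytes went through the same handling without pressure. Each of 4 two-colour arrays carried 1 treated pool in the red (Cy5) channel and 1 control pool in the green (Cy3) channel, so dye and treatment cannot be told apart. The submitters describe the replicates as biological, and the labels used here give no strain, animal age or meiotic stage. Each pool is a bulk sample, so fewer oocytes with a transcript and less of it in each oocyte cannot be told apart.

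A Rab protein works as a switch for membrane traffic: bound to GTP it recruits effectors to a vesicle or organelle, and bound to GDP it is drawn back into the cytosol. Guanine nucleotide exchange factors (GEFs) turn it on, GTPase-activating proteins (GAPs) turn it off, and lipid groups added to cysteines at its end hold it in the membrane. In mouse oocytes, vesicles marked by Rab11a organise the cytoplasmic actin network that moves the spindle, and Rab3a and Rab27a have been linked to the cortical granules that are released at fertilization.

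The array's 60-base probes read these transcripts at different places, and the following sequences show what 6 of them match. The first pair belongs to Rab10, lies on the minus strand of chromosome 12 and shares the 40 bases in capitals. One probe matches 1 unbroken stretch of the genome, chr12:3171099-3171158 in mouse build mm7, the build the files use. The other runs across an intron, chr12:3168338-3171138, and is the only intron-spanning Rab probe that was detected.
Rab10 probe within 1 exon: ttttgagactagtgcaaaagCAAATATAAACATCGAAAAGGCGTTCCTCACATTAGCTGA
Rab10 probe across an intron: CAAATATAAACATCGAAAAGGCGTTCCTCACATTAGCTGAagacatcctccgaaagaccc

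Both of the next probes were detected, and both end a reading frame. Their capitals mark the codons of the C-terminal cysteines, which carry the lipid groups, with another codon between them, followed by the stop codon. The Rab7 probe lies at chr6:88075498-88075557 on the minus strand and the Rab33a probe at chrX:43622315-43622374 on the plus strand.
Rab7 probe: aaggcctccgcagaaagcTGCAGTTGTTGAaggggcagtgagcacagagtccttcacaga
Rab33a probe: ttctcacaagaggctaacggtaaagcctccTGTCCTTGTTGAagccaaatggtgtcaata

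The last 2 probes span introns and were well above background on 0 of 4 arrays in either channel. Capitals mark the codons of conserved boxes of the fold that contact the guanine base of GTP, box G4 in Rab2b (chr14:47599951-47602350, minus strand) and box G5 in Rab8a (chr8:70699344-70700634, plus strand).
Rab2b probe: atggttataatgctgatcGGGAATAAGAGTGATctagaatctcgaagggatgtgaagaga
Rab8a probe: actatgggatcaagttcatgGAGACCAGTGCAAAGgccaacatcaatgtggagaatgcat

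In the 3 forward frames, box G4 was found in 1 Rab probe (0.98% of 102, against 0.0194% of all probes) and box G5 in 2 (1.96%, against 0.00729%). Of the 2 probes with box G5, 1 was detected: the Rab10 probe within 1 exon printed above, which holds the box ahead of its capitals. The cysteine codons with a stop were found in 2 (1.96%, against 0.537%). Probes of different Rab genes shared at most 14 bases in a row over 5089 pairs. Rab genes are paralogs, and probes were not compared with the transcripts of other Rab genes.

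On the arrays as a whole, replicate 1 stood apart. The 99th percentile of its net signal, the spot mean minus local background, was 2.53 times as high in the treated as in the control channel, against 0.245 to 0.388 times on the other arrays. Pearson's r of its log2 ratios with each other array, across all probes, was -0.19 to -0.15, while the other pairs of arrays gave 0.09 to 0.29. Results are therefore given with and without it, and for some genes also with the sign of its ratios turned, a setting chosen with earlier results known. Defining oocyte transcripts were present: 14 of 18 oocyte markers on the array were detected, among them Gdf9, Bmp15, Zp3 and Ddx4 on all 4 arrays in both channels. Nlrp5 was well above background on 0 arrays, and Zp2 and Figla each on 1, in the control channel. Markers of other cells were detected for 6 of 18 cumulus and granulosa genes, 2 of 9 blood and immune genes and 3 of 12 genes of oviduct epithelium, endothelium and stroma. Summed net signals of the cumulus and granulosa list ran from 646 to 2609 in treated and from 955 to 5853 in control pools, against 29767 to 225145 and 68730 to 226814 for the oocyte list. For the blood list they ran from 621 to 5765 in treated and 2129.8 to 8126 in control pools, and for the oviduct, endothelium and stroma list from 295 to 1415 and from 712 to 2285. Of these detected markers of other cells, Nr5a1, Tnfaip6, Hba-a1, Srgn and Acta2 were well above background on all 4 arrays in both channels. Cyp19a1, Ptgs2 and Kdr were so on 3 arrays in treated and 4 in control pools. On 0 arrays were 7 of the 18 cumulus and granulosa genes, 3 of the 9 blood genes and 4 of the 12 others, among them Fshr, Foxl2, Amh, Cd68 and Pecam1. The part of such cells in the Rab signals was not tested.

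The first question is which Rab genes the oocytes express. A gene was called detected if, in 1 of the 2 channels, a probe of it stood well above background on 3 or 4 of the arrays. By that rule 29 of 54 Rab genes (53.7%) were detected, against 31.9% of all named genes, and 38 of 102 Rab probes (37.3%), against 19.7% of all probes. Genes with several probes have more chances to be detected, so the shares are also given by number of probes: 8 of 19 with 1 probe (42.1%, against 22.4%) and 21 of 35 with several (60%, against 43.8%). These shares were not tested. Detection was found for 22 Rab genes in treated pools (40.7%, against 25.7% of named genes) and 28 in control pools (51.9%, against 30.9%). In 20 genes a probe was well above background in both channels on all 4 arrays. Without replicate 1, 26 genes met the rule with 3 of 3 arrays.

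**Figure D1:**
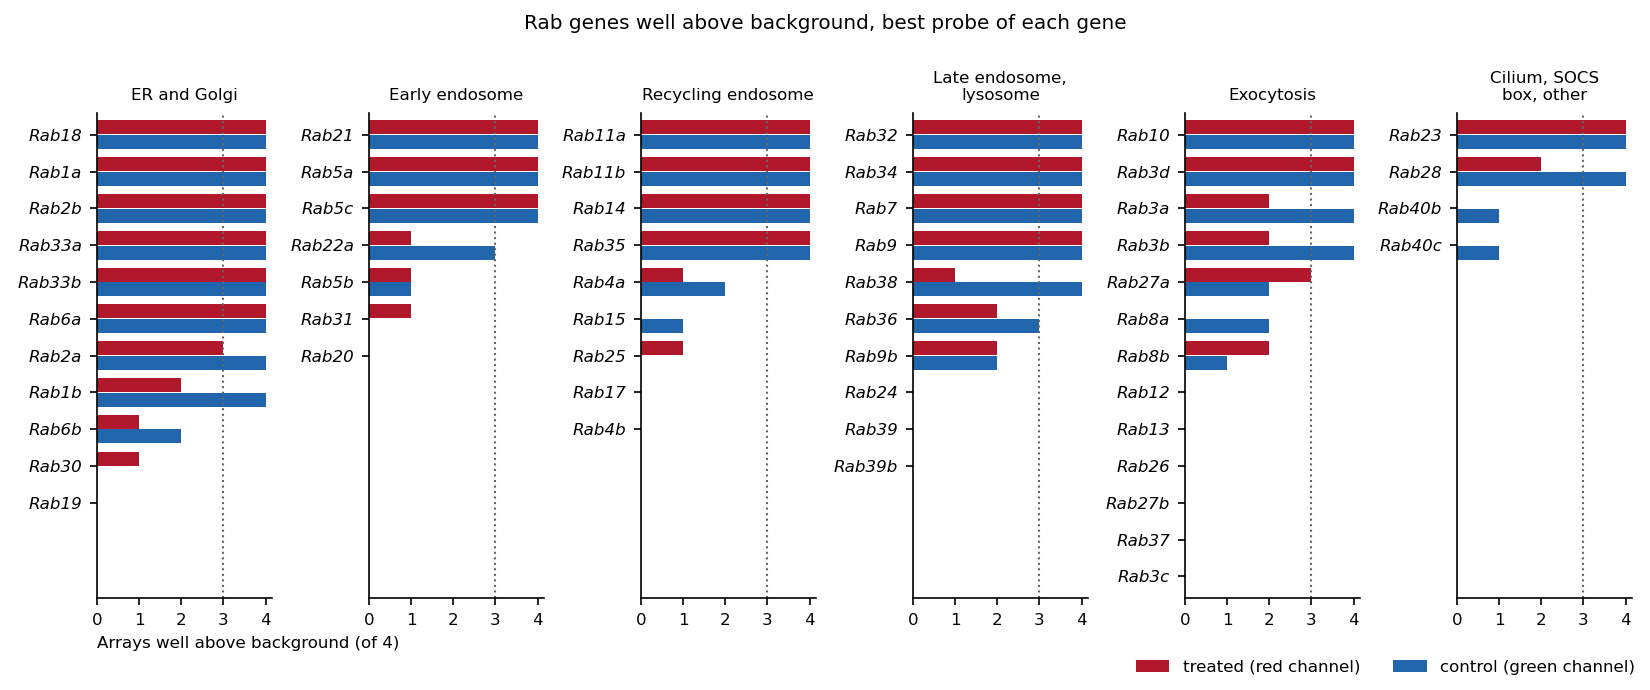
Number of arrays, of 4, on which the best probe of each of the 54 Rab genes was well above background, in treated pools (red channel, upper bar) and control pools (green channel, lower bar), grouped by the site where the protein is known to act. The dotted line marks the 3 arrays needed for detection, and 13 genes have no bar in either channel.

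Rabs of the endoplasmic reticulum and Golgi were detected for 8 of 11 genes. Rab18, which acts on lipid droplets and the endoplasmic reticulum, Rab1a, which serves transport between endoplasmic reticulum and Golgi, Rab6a, which serves traffic at the Golgi, and Rab2b, Rab33a and Rab33b were seen on all 4 arrays in both channels. Rab2a was seen on 3 arrays in treated and 4 in control pools, and Rab1b, a paralog of Rab1a, on 2 in treated and 4 in control pools. Of the rest, Rab6b was well above background on 1 array in treated and 2 in control pools, Rab30 on 1 array in treated pools and Rab19 on none.

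Early endosomal Rabs were detected for 4 of 7 genes. Rab5a and Rab5c, which drive the fusion of early endosomes, and Rab21, which carries integrins through them, reached all 4 arrays in both channels. Rab22a reached 1 array in treated and 3 in control pools. The third Rab5 gene, Rab5b, was well above background on 1 array in each channel, Rab31 on 1 in treated pools and Rab20 on none. Of the recycling endosome Rabs, 4 of 9 were detected, Rab11a, Rab11b, Rab14 and Rab35, each on all 4 arrays in both channels. Rab4a, of the fast recycling route, reached 1 array in treated and 2 in control pools. Rab25, an epithelial relative of Rab11a, reached 1 array in treated pools and Rab17, also epithelial, reached none. Rab15 reached 1 array in control pools and Rab4b none.

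Late endosomal, lysosomal and related Rabs were detected for 6 of 10 genes. Rab7, the main Rab of late endosomes, Rab9, of the route back to the Golgi, Rab32, of lysosome-related organelles, and Rab34, which acts at the Golgi and in cilium formation, were seen on all 4 arrays in both channels. Rab38, which acts with Rab32 in pigment cells, was seen on 1 array in treated and 4 in control pools, and Rab36 on 2 in treated and 3 in control pools. Rab9b reached 2 arrays in each channel, and Rab24, Rab39 and Rab39b reached none.

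Exocytic Rabs were detected for 5 of 13 genes. Rab10 and Rab3d, of secretory granules, were seen on all 4 arrays in both channels. Rab3a and Rab3b were each seen on 2 arrays in treated and 4 in control pools, and Rab27a on 3 in treated and 2 in control pools. Rab8a was well above background on 0 arrays in treated and 2 in control pools, and Rab8b on 2 in treated and 1 in control pools. Rab12, Rab13, Rab26, Rab27b, Rab37 and Rab3c were seen on none. Of the remaining 4 genes, Rab23, an inhibitor of hedgehog signalling, was seen on all 4 arrays in both channels and Rab28, of the cilium, on 2 in treated and 4 in control pools. Rab40b and Rab40c, which carry a SOCS box for ubiquitin ligases, were each seen on 1 array in control pools.

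In all, 21 genes were detected in both channels, 7 in control pools only (Rab1b, Rab28, Rab22a, Rab3a, Rab3b, Rab36 and Rab38) and 1 in treated pools only (Rab27a). Each of these 8 was still well above background on 1 or 2 arrays of the other channel. Replicate by replicate, 35, 23, 24 and 27 Rab genes were well above background in treated pools of replicates 1 to 4, against 33, 32, 31 and 31 in control pools. Replicate 1 was thus the only array with more Rab genes in the treated channel. All probes went the same way: 25.33% were well above background in the treated and 18.93% in the control channel of replicate 1, against 16.05% to 18.46% and 21.61% to 24.48% on the other arrays. The part of overall channel brightness in these channel differences was not tested.

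Whether a Rab gene was detected also varied with the place of its probe. Of 18 intron-spanning Rab probes, 1 was detected (5.56%, against 12.4% of all such probes), while of 84 probes within 1 stretch of the genome 37 were detected (44%, against 20.7%). All 18 intron-spanning probes had an open reading frame over their whole length. For 34 Rab genes, and for 8326 of all named genes, the first and last of several probes could be ordered along the gene. The 3′-most probe was detected in 15 of the 34 (44.1%, against 32.8% of the 8326) and the 5′-most in 6 (17.6%, against 13.9%). Of 35 genes with several probes, 18 had some but not all of them detected. Rab2b and Rab11b, for example, each had 1 detected probe and 1 that was well above background on 0 arrays and spans an intron. Rab17 and Rab4b, both well above background on no array, were each measured by 1 intron-spanning probe alone.

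**Figure D2:**
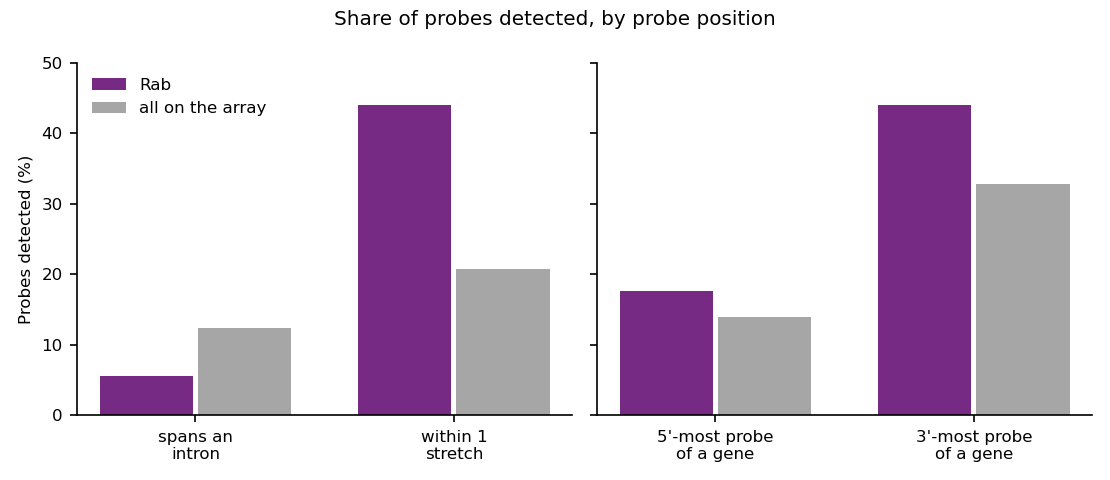
Share of probes detected, in percent, by whether the probe spans an intron (left) and whether it is the 5′-most or 3′-most probe of its gene (right). The Rab bars stand at 5.56% and 44% on the left and 17.6% and 44.1% on the right. Beside them are 12.4% and 20.7% for all probes, and 13.9% and 32.8% for the 8326 named genes with several probes in order.

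The second question is whether the pressure treatment changed the Rab transcripts. No Rab gene passed the test in either direction. With the normalization used here most mean log2 ratios of treated over control were small, and 1 was at least 0.5 in size. Single arrays lay farther apart: the range over arrays was at least 1 in 13 of 29 tested Rab genes, with a median of 0.83. With the scanner software's processed signals the means ran from -1.75 for Rab3b to 0.97 for Rab33a. Of 29 tested Rab genes, 0 were called at an adjusted p of 0.05 by limma with Benjamini-Hochberg adjustment over 6917 genes, as were 0% of all tested genes. At an unadjusted p of 0.05, 0 Rab genes passed, against 4.19% of all tested genes (290). Adjusted p-values of the Rab genes ran from 0.929 to 0.996. Their mean log2 ratios had a median of 0.05, with 16 above 0 and 13 below (44.8%, against 52.5% of all tested genes), and the median of all tested genes was -0.02. On single arrays the Rab median was 0.12, -0.06, -0.16 and 0.05 for replicates 1 to 4, so it changed sign between arrays. The standard errors, moderated by limma, ran from 0.156 to 0.459 with a median of 0.21.

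The split between higher and lower moved with the scaling. With the scanner software's processed signals 12 Rab genes lay above and 17 below 0, at a median of -0.17, and the median of all genes was then -0.11. With median centring in place of loess 5 lay above and 24 below, at a median of -0.29, where all genes had -0.34. Without replicate 1, 11 lay above and 15 below (median -0.08), without replicate 3, 18 and 8 (median 0.14), and without replicate 4, 10 and 18 (median -0.04). Leaving out some 1 array changed the sign of the mean in 12 of the 29 genes. The 29 include 7 genes tested only through the control channel, and among the 20 seen in both channels on all arrays 13 lay above and 7 below 0, with a median of 0.07.

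**Figure D3:**
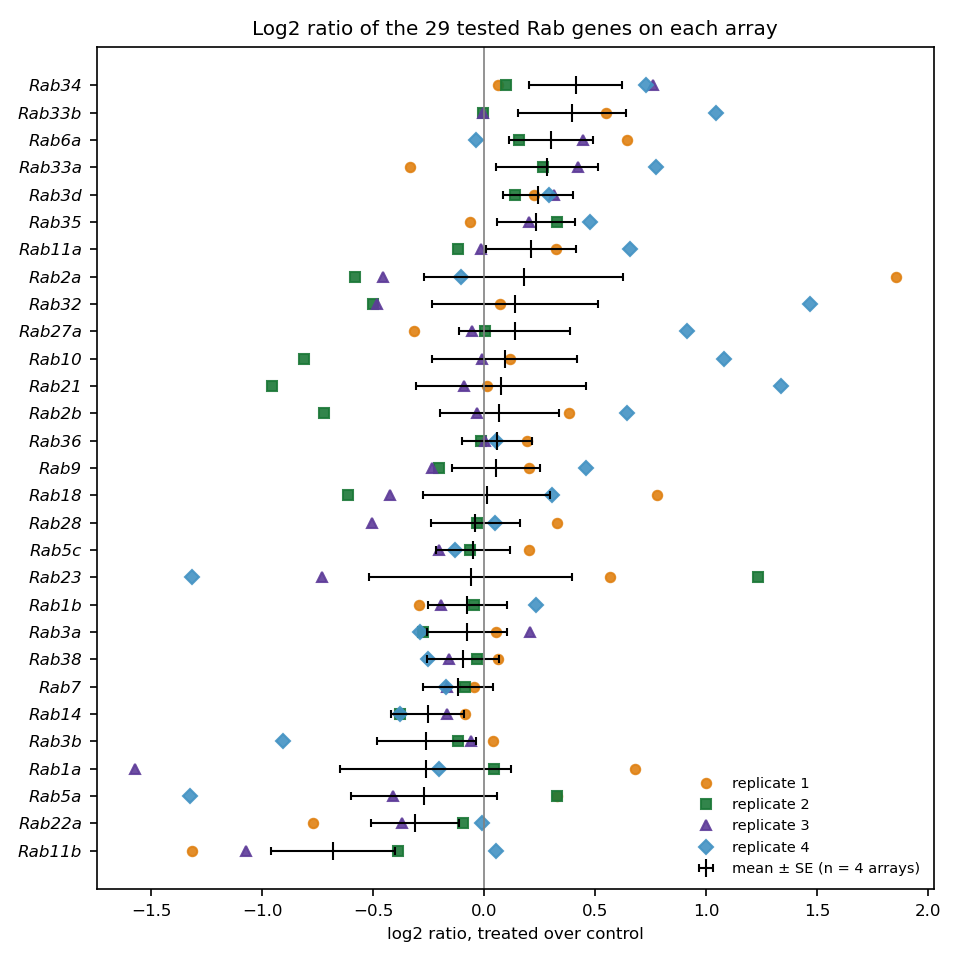
Log2 ratio of treated over control on each of 4 arrays (points) and the mean with its moderated standard error (bar) for the 29 tested Rab genes, ordered by mean. The means run from 0.41 for Rab34 to -0.68 for Rab11b, and the arrays of Rab23 lie farthest apart, from -1.32 to 1.23.

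Among the Rabs of the endoplasmic reticulum and Golgi, 6 means lay above 0 and 2 below, with a median of 0.12. This split rested on replicates 1 and 4: the group's median was 0.59, -0.03, -0.11 and 0.27 on replicates 1 to 4. Without replicate 1 there were 3 above and 5 below 0, with a median of -0.02. Without replicate 4 there were 4 on either side, with a median of 0.02. Rab6a had net signals of 25449, 6181, 1988 and 8188 in treated pools of replicates 1 to 4, against 5777, 12955, 6185 and 29672 in control pools. After normalization its log2 ratios were 0.64, 0.16, 0.45 and -0.04, a mean of 0.30 ± 0.19 (SE, n = 4), or 0.19 without replicate 1. Net signals are given before the channels were balanced, so treated and control values of an array differ by the channel factor as well, here as in every gene below. Rab33b had a mean of 0.39 and Rab33a 0.28, both Golgi Rabs that act in retrograde transport and autophagy. Rab2a had 0.18, with 1.85 on replicate 1 and -0.58 to -0.10 on the others, and a mean of -0.38 without replicate 1. Rab2b had 0.07, Rab18 0.01, Rab1b -0.08 and Rab1a -0.26, the last with -1.57 on replicate 3 and a mean of 0.17 without it. Rab1b was tested only through the control channel, and was at -0.63 with processed signals.

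Of the early endosomal Rabs, Rab21 had a mean of 0.08, Rab5c -0.05, Rab5a -0.27 and Rab22a -0.31. Rab5a had net signals of 157, 86.8, 25.0 and 23.2 in treated pools, against 54.7, 128, 198 and 367 in control pools. Its log2 ratios were 0.33, 0.33, -0.41 and -1.33, so 2 arrays lay on either side of 0. The mean of -0.27 ± 0.33 (SE, n = 4) was -0.47 without replicate 1 and 0.08 without replicate 4. Rab22a, which regulates endosome recycling, had net signals of 46.4, 6.42, 1.82 and 10.5 in treated pools, against 68.1, 46.7, 55.0 and 24.4 in control pools, near or under the offset of 50 used in background correction. Its log2 ratios were -0.77, -0.09, -0.37 and -0.01, with a mean of -0.31 ± 0.20 (SE, n = 4). The gene was tested only through its control channel: the treated pool was well above background on replicate 1 alone, and on replicate 4 neither channel was, so these signs rest largely on values at background. A second kept Rab22a probe, likewise seen on 1 array in treated and 3 in control pools, gave 0.02, -0.03, -0.18 and -0.22, with a mean of -0.10. Without replicate 1 or 3 the gene no longer met the detection rule. Without replicate 2 the first probe no longer met it, and the value of -0.13 comes from the second probe. With the sign of replicate 1 turned, the mean of the first probe was 0.07.

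The recycling Rabs held the only mean of at least 0.5 in size, against 14.8% of all tested genes. This was Rab11b, a close paralog of Rab11a, whose probe lies at chr17:31821584-31821643. Its net signals were 85.6, 37.9, 14.8 and 41.9 in treated pools, against 153, 235, 294 and 109.9 in control pools, lower in the treated pool on every array before the channels were balanced. The log2 ratios were -1.32, -0.39, -1.08 and 0.05, so 3 arrays lay below 0 and replicate 4 just above. The mean was -0.68 ± 0.28 (SE, n = 4; limma adjusted p = 0.929), and -0.47 without replicate 1. Turning the sign of replicate 1 brought it to -0.02, and processed signals to -1.72.

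Rab11a had net signals of 10409.6, 1253, 738 and 2969.9 in treated pools, against 3131, 3295, 2953 and 5988 in control pools. Its log2 ratios were 0.32, -0.12, -0.01 and 0.66, with a mean of 0.21 ± 0.20 (SE, n = 4). It was 0.17 without replicate 1 and 0.06 without replicate 4, and median centring put it at -0.49. The other detected Rab11a probes had means of 0.20 and -0.09. The difference between both Rab11 genes was not tested. Rab14, which acts between the Golgi and endosomes, had net signals of 2143, 63.9, 223 and 357 in treated pools, against 955, 307, 961 and 1377 in control pools. It lay below 0 on all 4 arrays, at -0.09, -0.38, -0.17 and -0.38, with a mean of -0.25 ± 0.16 (SE, n = 4) and -0.31 without replicate 1. A second detected Rab14 probe gave 0.05, -0.11, 0.85 and -0.19 on the same arrays, so its mean of 0.15 had the opposite sign. Rab35, of the plasma membrane and early recycling, had a mean of 0.24.

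Among the late endosomal and lysosomal Rabs, Rab7 varied least between arrays. Its net signals were 636, 151, 93.0 and 98.1 in treated pools, against 298, 434, 425 and 328 in control pools. The log2 ratios were -0.05, -0.09, -0.17 and -0.17, with a mean of -0.12 ± 0.16 (SE, n = 4) and -0.14 without replicate 1. Its second detected probe, the one shown above with the cysteine codons, gave -0.07, 0.05, 0.19 and -0.21. Rab34 had net signals of 50.5, 38.1, 92.8 and 61.3 in treated pools, against 29.9, 72.3, 178 and 69.0 in control pools. Its log2 ratios of 0.06, 0.10, 0.76 and 0.73 were all above 0, with a mean of 0.41 ± 0.21 (SE, n = 4; limma adjusted p = 0.929) and 0.53 without replicate 1. With median centring it was at -0.0048, just on the other side of 0. Rab32 had a mean of 0.14, Rab36 0.06, Rab9 0.05 and Rab38 -0.10, and Rab32 reached 1.47 on replicate 4 and was between -0.50 and 0.07 on the others. Rab36 and Rab38 were tested only through the control channel, so their ratios rest in part on treated values at background. With processed signals Rab36 was at -0.76 and Rab38 at -1.64.

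Of the exocytic Rabs, Rab3d had net signals of 149, 103, 33.0 and 97.4 in treated pools, against 58.2, 233, 93.1 and 210.4 in control pools. It lay above 0 on all 4 arrays, at 0.23, 0.14, 0.31 and 0.29, with a mean of 0.24 ± 0.16 (SE, n = 4) and 0.25 without replicate 1, and was at -0.15 with median centring. Its second detected probe gave -0.28, 0.11, 0.33 and 0.53. Rab3a had net signals of 51.3, 10.3, 17.1 and 6.27 in treated pools, against 30.4, 124, 53.4 and 36.3 in control pools. The ratios of 0.05, -0.28, 0.20 and -0.29 fell on both sides of 0, with a mean of -0.08 ± 0.18 (SE, n = 4). Rab3a was tested only through the control channel. Its treated pools were not well above background on replicates 2 and 4, the arrays with ratios below 0. With 1 array left out the Rab3a mean ran from -0.17 to -0.0054 (-0.12 without replicate 1), and with processed signals it was -1.22.

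Rab27a had net signals of 19.9, 6.56, 8.14 and 44.3 in treated pools, against 32.3, 19.8, 45.0 and 22.2 in control pools, and replicate 4 alone was higher in the treated pool. Its log2 ratios were -0.32, 0.00, -0.05 and 0.92, with a mean of 0.14 ± 0.25 (SE, n = 4), and without replicate 1, 3 or 4 it no longer met the detection rule. Rab27a was tested only through the treated channel. On replicate 2 neither channel was well above background, and on replicate 4 the control pool was not. Rab10, which carries vesicles to the plasma membrane, had a mean of 0.09 with single arrays from -0.81 to 1.08, and Rab3b a mean of -0.26. Outside these sites, Rab28 had -0.04 and Rab23 -0.06, with single arrays of Rab23 from -1.32 to 1.23. Rab28 was tested only through the control channel, and was at -1.22 with processed signals.

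Few Rab genes had the same sign on every array. Below 0 on all 4 arrays were 3 of 29 (Rab7, Rab14 and Rab22a), against 9.35% of all genes with 4 values, but Rab22a was tested only through the control channel and its sign on replicate 4 carries no information. Above 0 on all 4 were 2 (Rab3d and Rab34), against 2.94%, and 12.3% of all genes had 1 sign throughout. Nothing particular to the Rab genes is read from these counts. Over the 29 genes, the log2 ratios of replicate 1 correlated with those of replicates 2, 3 and 4 at -0.01, -0.04 and -0.13, and the other pairs gave 0.02 for replicates 2 and 3, -0.52 for 2 and 4 and 0.31 for 3 and 4 (Pearson's r across genes, which share each array's normalization). For 9 genes the median net signal over the 8 channels was under that offset of 50, which draws log2 ratios of dim probes toward 0. For 7 genes it was over 10 times as high as the offset.

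**Figure D4:**
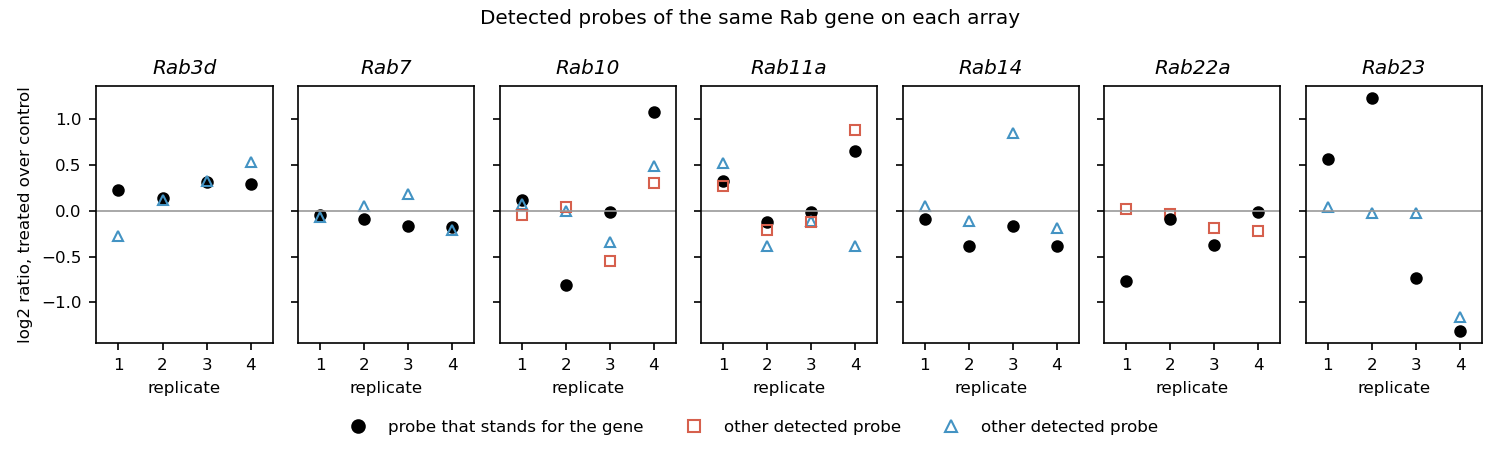
Log2 ratio of treated over control on each array for every detected probe of the 7 Rab genes that have several, with the probe that stands for the gene as a filled circle. The probes of a gene had the same sign on 18 of 28 array comparisons, and in Rab14 they lay 1.01 apart on replicate 3.

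Where a gene had several detected probes, they often gave different ratios on the same array. In 7 such genes all probes had the same sign on 18 of 28 comparisons of a gene on an array, and their means had the same sign in 4 genes. Rab10 shows this for the overlapping pair printed above: the probe within 1 exon gave 0.07, 0.00, -0.34 and 0.49 on replicates 1 to 4 and the probe across the intron -0.04, 0.04, -0.54 and 0.31. The third Rab10 probe, which stands for the gene, lay farther from both on replicate 2, at -0.81, and on replicate 4, at 1.08. Rab11a had the widest gap, 1.26 on replicate 4, where the probe that stands for the gene gave 0.66 and the others 0.88 and -0.39.

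**Figure D5:**
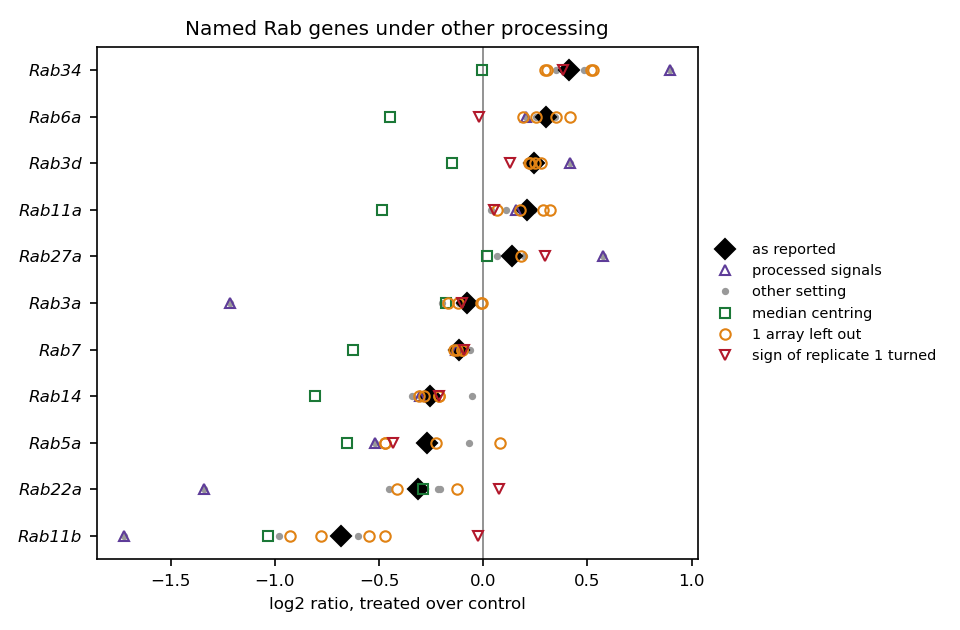
Mean log2 ratio of treated over control of the 11 Rab genes described on every array, as reported (black diamonds) and under the other settings. Median centring places most genes lower, the processed signals place Rab3a, Rab22a and Rab11b lowest, and Rab5a lies above 0 only without replicate 4.

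The proteins that act on Rabs were described by lists of other genes. Of 12 genes for the prenylation and membrane extraction of Rabs, 5 were tested and 0 passed, with 3 above and 2 below 0 and a median of 0.20. Chml, one of the escort proteins that present Rabs to the prenylating enzyme, had log2 ratios of 1.12, 0.19, 0.10 and 1.26, a mean of 0.67 ± 0.27 (SE, n = 4), or 0.51 without replicate 1. Its mean was 0.10 with replicate 1 turned, 0.08 with median centring and 2.47 with processed signals. Rce1, a protease that trims prenylated proteins, had a mean of 0.23, or 0.05 without replicate 3 and -0.27 with median centring.

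Of 48 GEFs, 18 were tested and 0 passed, with 10 above and 8 below 0 and a median of 0.01. Ccz1, part of the Mon1-Ccz1 complex that turns on Rab7, had log2 ratios of -0.07, -0.62, -1.12 and -2.16, below 0 on all 4 arrays. Its mean of -0.99 ± 0.36 (SE, n = 4; limma adjusted p = 0.929) was -1.30 without replicate 1 and -0.60 without replicate 4. Mon1a and Mon1b, its partners, had means of 0.14 and -0.31. Gapvd1, a GEF of Rab5, had 0.43, or 0.26 without replicate 1, 0.11 with median centring and -0.03 with replicate 1 turned.

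Of 42 GAPs, 18 were tested and 0 passed, with 8 above and 10 below 0 and a median of -0.11. Rab3gap1, the catalytic subunit of the Rab3 GAP, lay at -0.92, -0.20, -0.21 and -0.54 and had a mean of -0.47 ± 0.20 (SE, n = 4). The probe was well above background on 2 arrays in treated and 4 in control pools, so Rab3gap1 was tested only through the control channel. Its ratios therefore rest in part on treated values at background. It was at -0.32 without replicate 1, -0.0089 with replicate 1 turned and -2.91 with processed signals, and its partner Rab3gap2 had -0.18. Tbc1d10a, a GAP of Rab27a, had 0.33, or 0.56 without replicate 1 and 0.12 without replicate 4. Of 55 effectors, 22 were tested and 0 passed, with 5 above and 17 below 0 and a median of -0.22, where 52.5% of all tested genes lay below 0 and their median was -0.02. On replicates 1 to 4 the effectors' median was 0.13, -0.03, -0.39 and -0.59, so it lay below 0 on 3 of 4 arrays, and without replicate 1 it was -0.30. Sytl4, a Rab27 effector of secretory granules, and Zwint, a kinetochore protein known in other cells as a Rab3 partner, had means of -0.49 and -0.47, which ran from -1.16 to -0.27 and from -1.18 to -0.22 over the settings tried. Myo5a, the motor that Rab27a recruits in pigment cells, had -0.72 ± 0.46 (SE, n = 4), and was chosen after its value was seen, as were Mon1a, Mon1b and Rab3gap2. Of 6 Rab-like genes outside the name rule, only Rabl3 was tested, and only through the control channel. Its mean was 0.13, or -0.04 without replicate 4 and -0.55 with processed signals.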

How the data were processed

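RNA of pools of 50 oocytes was amplified from 240 pg and dye-labelled, per the labels' protocols. The deposited scanner files give, for each spot, the mean and the local background intensity, and also processed signals with their log10 ratio. Per the submitters' processing notes they come from Agilent Feature Extraction, version 9.5.1.1. The authors' value table equals that log10 ratio to within 5e-10, with a median of 0 on each array.

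Starting from the deposited intensity columns, normexp (offset 50) and then loess were applied in limma 3.58.1 (R 4.3.3), with a weight of 0 for control spots. Control and outlier-flagged spots were dropped, and 0 spots were saturated. After spots of a probe had been averaged, a probe was kept when 3 or 4 arrays had it well above background in 1 channel (8108 of 41174). The brightest kept probe stood for its gene. Beyond that choice, levels of different probes were set side by side only as net signals summed over the marker lists, which differ in size. Log2 ratios, computed here from the deposited intensities, were compared with 0 by lmFit and eBayes, and p-values were adjusted by Benjamini-Hochberg across 6917 genes. The number of arrays limits the precision.

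Names were updated through RefSeq (GRCm38.p6), which matched 43 Rab genes by accession and 11 by symbol. Rab1, Rab2 and Rab6 of the files became Rab1a, Rab2a and Rab6a. Probe positions (mm7) and sequences are those of the files. A probe longer than 70 bases on the genome was taken to span an intron. Members and lists were chosen with earlier results of these data known. Values on every array are given for Rab genes of 1 sign on all arrays, with a mean of at least 0.5 in size, or from a short list of Rabs well studied in this tissue or elsewhere (Rab3a, Rab5a, Rab6a, Rab7, Rab11a, Rab27a), and the 2 members with the smallest p are named from each other list. The alternatives covered background, normalization, probe filter and choice, model, the authors' values, each array left out and replicate 1 turned. All 4 arrays lie on 1 slide, so no slide block could be fitted.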

Additional observations from a re-analysis of the deposited data

Results flagged for a closer look

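Of 52 sets of 4 array values examined, 1 had an array far from the rest. The rule flags about 1 in 20 sets of independent normal values. The sets examined share arrays and in part genes, so their count was not compared with chance. Rab3b, a secretory granule Rab, had a log2 ratio of -0.91 on replicate 4, while the other arrays lay between -0.12 and 0.04. Its net signals were 78.5, 24.1, 8.87 and 7.42 in treated pools of replicates 1 to 4, against 40.9, 107, 51.2 and 127 in control pools. The gene was tested only through the control channel, and its treated pools were not well above background on replicates 3 and 4. The value of -0.91 thus sets a treated signal at background against the control. Without replicate 4 its mean was -0.05, against -0.26 with all 4 arrays.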

How the results depend on the processing

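No gene was called under any of 17 settings, with a lowest adjusted p from limma of 0.0535 with replicate 1 turned and 0.142 without replicate 1, and with 118 to 930 genes under an unadjusted p of 0.05. Rab genes called stayed at 0 in each. Detected Rab genes numbered 34 at 2 of 4 arrays, 20 at 4 of 4 in both channels, 41 by the positive-and-significant flag and 26 to 28 with 1 array left out. The Rab median of 0.05 became -0.17 with processed signals and with the authors' values and -0.29 with median centring, and was -0.0786 to 0.161 with 1 array left out. Rab genes below 0 were 24 of 29 with median centring, 7 of 20 with both channels detected on all arrays, 25 of 54 without a filter and 8 to 18 with 1 array left out. With median centring, Rab11a was at -0.49, Rab34 at -0.0048, Rab3d at -0.15 and Rab6a at -0.45. With replicate 1 turned, Rab22a was at 0.0738 and Rab6a at -0.0187. Rab5a ran from -0.471 to 0.0807 with 1 array left out. The list medians with median centring were -0.27 for prenylation, -0.37 for GEFs, -0.60 for GAPs and -0.60 for effectors. The authors' values gave -0.76 for effectors and -0.55 for Rabl3. Prenylation was at -0.01 without a filter and 0.01 to 0.34 with 1 array left out. The cause of these shifts was not tested. Rab22a, Rab27a and Rab36 have no value where a left-out array leaves too few detected. Each ratio already sets the treated against the control pool of the same array, so the test of the ratios against 0 is itself the paired comparison. Dim probes limit the ratios of 9 Rab genes, whose median net signal was under 50.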
